A study of Rattus norvegicus with 35 samples.

Results

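The genes described here are 10 genes of Kupffer cells and other macrophages, listed by symbol and read from arrays of rat liver: Cd163, Cd14, Lyz2, Laptm5, Marco, Vsig4, Cd68, Csf1r, Clec4f and Cd5l. Of these, 8 had a probe set annotated to that gene alone, with 10 probe sets in all, out of 14217 genes and 31042 probe sets on the array. Marco and Vsig4 were not analysed here. Where a gene had several probe sets, the one with the highest mean over all arrays represented it.

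The rats were Harlan Sprague Dawley males that began at 7 weeks of age and received BTBPE by gavage in 5 ml/kg of corn oil for 5 days. This brominated flame retardant is 1,2-bis(2,4,6-tribromophenoxy)ethane. Corn oil alone went to the 6 vehicle rats. Groups of 6 rats received 680 mg/kg, 6.88 mg/kg, 0.69 mg/kg or 0.07 mg/kg, and a group of 5 received 68 mg/kg. A piece of the left lobe, taken the day after the last dose, gave 1 array per rat and 35 arrays in all, and each sample is counted as 1 rat, so p-values measure the spread between these samples.

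Kupffer cells are the resident macrophages of the liver sinusoids. They depend on signalling through the receptor Csf1r, take up particles, haemoglobin and modified lipoproteins through scavenger receptors, and recognise bacterial lipopolysaccharide through a complex to which Cd14 delivers it. In a whole piece of liver their transcripts are diluted by those of hepatocytes, and a lower value for a gene can come from fewer macrophages or from less RNA per macrophage, which cannot be told apart in these bulk samples.

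The upstream sequence of 4 of the genes is shown because Cd68, Clec4f and Cd5l gave the 3 closest pairs among rats while Lyz2 had lower r with them. Each line gives the 250 bases before the annotated start, 5′ to 3′ in the direction of the gene, from RefSeq's annotation of assembly GRCr8. Capitals mark GAGGAA or its reverse complement TTCCTC, the core bound by PU.1, a transcription factor of the myeloid lineage.
Cd68, chr10:54882442-54882691, minus strand: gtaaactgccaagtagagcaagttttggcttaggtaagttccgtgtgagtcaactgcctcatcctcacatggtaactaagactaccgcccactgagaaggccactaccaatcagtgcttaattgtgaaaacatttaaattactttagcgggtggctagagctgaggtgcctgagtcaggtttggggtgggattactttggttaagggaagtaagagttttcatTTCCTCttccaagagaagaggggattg
Clec4f, chr4:117696408-117696657, minus strand: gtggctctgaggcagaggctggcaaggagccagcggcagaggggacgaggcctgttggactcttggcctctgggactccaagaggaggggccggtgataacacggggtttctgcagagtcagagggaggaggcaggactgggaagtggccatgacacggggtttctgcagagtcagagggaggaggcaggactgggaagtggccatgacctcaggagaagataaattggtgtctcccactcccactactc
Cd5l, chr2:175088665-175088914, plus strand: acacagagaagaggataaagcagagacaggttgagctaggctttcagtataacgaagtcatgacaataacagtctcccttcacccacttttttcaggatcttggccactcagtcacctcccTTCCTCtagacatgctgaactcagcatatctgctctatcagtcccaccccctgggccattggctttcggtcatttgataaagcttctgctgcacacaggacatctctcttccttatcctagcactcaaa
Lyz2, chr7:54798012-54798261, minus strand: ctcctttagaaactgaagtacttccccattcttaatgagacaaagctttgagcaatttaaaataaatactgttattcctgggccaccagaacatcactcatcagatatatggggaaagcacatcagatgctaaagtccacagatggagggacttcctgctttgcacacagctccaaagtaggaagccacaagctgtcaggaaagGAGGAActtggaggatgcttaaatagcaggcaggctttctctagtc
The core was found in the upstream windows of Cd68, Cd5l and Lyz2, and these letters were not in that of Clec4f. Over all listed genes, 7 of 10 had it in this window, and 23.3% of the 33469 promoters of the table did. On both strands, the MAF motif TGCTGA was found within the 250 bases for 1 of the 10 genes (15.1% of all promoters), the Sp1 box GGGCGG for 1 (30.5%) and the TATA box TATAAA for 2 (12.9%). Cd68 carried the Sp1 box and Cd5l the MAF motif. A match describes letters only, and the GAGGAA core was present for Lyz2 and absent for Clec4f. Of the genes not shown, Cd14 had this core at 2 places in its window and Cd163 had none.

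Every gene was well within the measured range of the arrays, with means over all rats from 6.39 for Cd163 to 9.81 for Lyz2 on the log2 scale, where array medians ran from 4.71 to 4.79. Levels of different probe sets depend on their probes and are not compared with each other. The spread among rats of one dose was wide for most of them. The within-group SD was 0.45 log2 for Cd5l, 0.43 for Lyz2, 0.38 for Clec4f, 0.36 for Cd68, 0.30 for Cd163, 0.29 for Csf1r and 0.26 for Cd14. These 7 SDs exceeded those of 93.8% to 98.3% of the probe sets with a mean within 0.5 log2 of theirs, while that of Laptm5, at 0.14, exceeded 62.1%. Dose groups accounted for 3.86% of the variance of Csf1r and up to 16.4% of that of Laptm5, where the median of all probe sets was 12.6%, so most of the variance of each gene lay between rats that received the same dose.

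Cd68, a lysosomal glycoprotein of macrophages, shows that spread. In vehicle rats it ran from 7.43 to 8.17 with a median of 7.99. The lowest, median and highest values were 7.44, 7.73 and 8.20 at 0.07 mg/kg, 7.00, 7.92 and 8.23 at 0.69, 7.34, 7.81 and 8.32 at 6.88, and 7.57, 7.92 and 8.06 at 680 mg/kg. At 68 mg/kg the 5 rats read 7.96, 7.14, 8.12, 7.88 and 7.01, in the order of their replicate numbers. Replicates 2 and 5 were therefore below every vehicle rat and the other 3 rats were within the vehicle range. The groups overlapped at every dose.

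Clec4f, a C-type lectin known in rodents as a marker restricted to Kupffer cells, gave the same picture. It ran from 9.39 to 10.20 in vehicle rats, from 9.40 to 10.21 at 0.07 mg/kg, from 9.08 to 10.27 at 0.69, from 9.41 to 10.25 at 6.88 and from 9.42 to 10.08 at 680 mg/kg, with medians between 9.67 and 9.95. At 68 mg/kg its values were 9.95, 9.10, 10.12, 9.88 and 8.86. The low pair was again replicates 2 and 5.

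Cd5l, a secreted scavenger receptor protein made by tissue macrophages, ran from 8.50 to 9.27 in vehicle rats and read 9.05, 7.90, 9.26, 9.09 and 7.98 at 68 mg/kg. At the other doses its lowest and highest values were 8.48 and 9.26 at 0.07 mg/kg, 8.20 and 9.71 at 0.69, 8.16 and 9.70 at 6.88, and 8.44 and 9.09 at 680 mg/kg. Csf1r, the receptor for the macrophage growth factors Csf1 and Il34, ran from 7.02 to 7.71 in vehicle rats and read 7.39, 6.82, 7.59, 7.52 and 6.96 at 68 mg/kg. Laptm5, a lysosomal membrane protein of leukocytes, ran from 7.22 to 7.59 in vehicle rats and read 7.39, 7.04, 7.40, 7.44 and 7.08. All 3 genes thus had the same low rats at 68 mg/kg, each below the lowest vehicle rat, and the other 3 rats within the vehicle range.

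Cd163, the scavenger receptor for haemoglobin bound to haptoglobin, ran from 6.11 to 6.78 in vehicle rats with a median of 6.73. At 68 mg/kg it read 6.31, 5.97, 6.33, 6.47 and 5.99, so all 5 rats were below the vehicle mean of 6.59 but 3 of them were above the lowest vehicle rat. At the other doses it ran from 6.04 to 6.73 at 0.07 mg/kg, from 5.47 to 6.70 at 0.69, from 5.98 to 6.63 at 6.88 and from 6.01 to 6.72 at 680 mg/kg. The lowest Cd163 value of the study belonged to replicate 5 at 0.69 mg/kg, not to a rat at 68 mg/kg.

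Cd14 and Lyz2 ordered the rats differently. Cd14, the co-receptor for lipopolysaccharide, occurs on macrophages and monocytes and is also released in soluble form, for which hepatocytes are a known source. It ran from 8.99 to 9.70 in vehicle rats and read 9.69, 9.92, 9.76, 9.36 and 9.995 at 68 mg/kg, where replicates 2 and 5 were the highest of the group. At the other doses the lowest and highest Cd14 values were 9.38 and 9.81 at 0.07 mg/kg, 9.07 and 9.73 at 0.69, 8.99 and 10.05 at 6.88, and 9.34 and 9.93 at 680 mg/kg. Lyz2, the lysozyme of macrophages and neutrophils, ran from 9.70 to 10.34 in vehicle rats and read 10.29, 8.36, 10.06, 9.84 and 9.58 at 68 mg/kg. Its replicate 2 was the lowest of all 35 rats and replicate 5 was also below the lowest vehicle rat. At 0.07 mg/kg Lyz2 spanned 8.82 to 10.34, at 0.69 from 9.57 to 10.31, at 6.88 from 9.50 to 10.21 and at 680 mg/kg from 9.48 to 10.11.

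**Figure D1:**
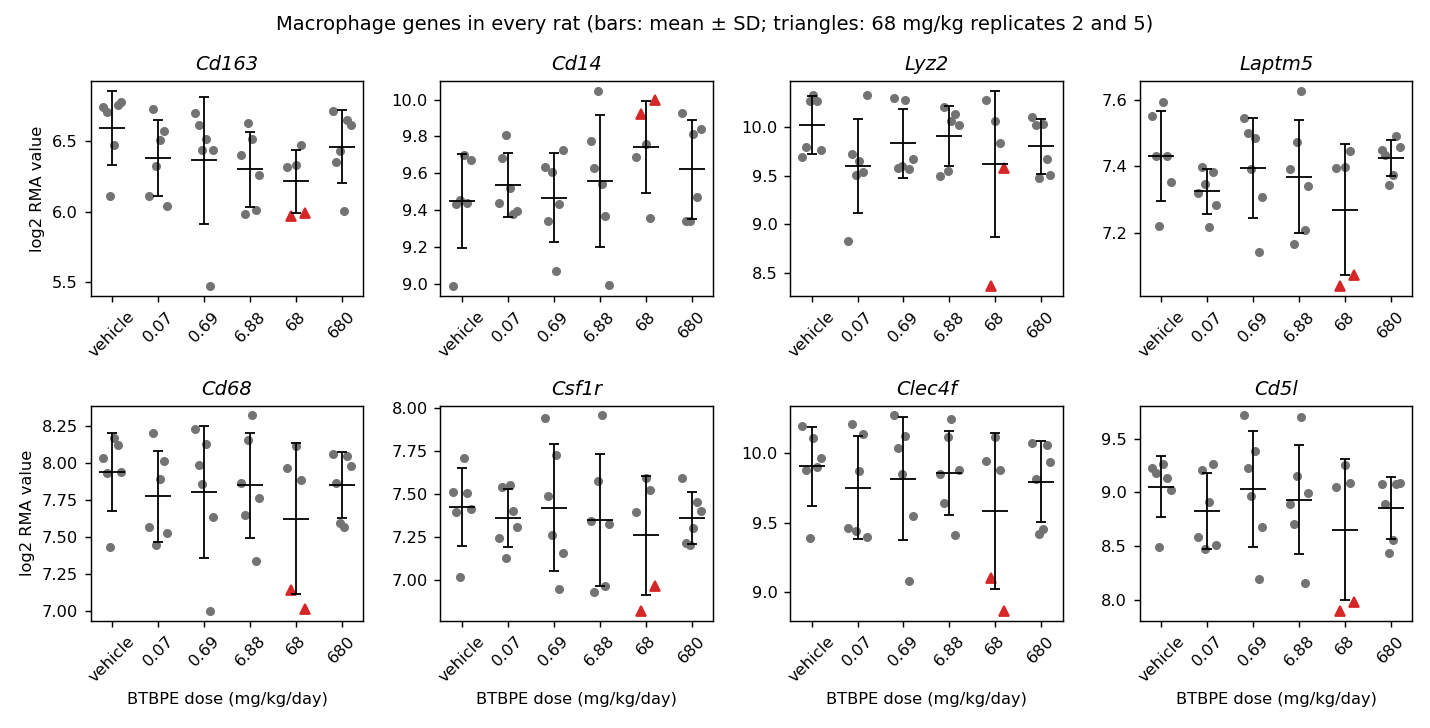
Each point is 1 rat, on the log2 scale of the deposited values, by dose, with the mean and SD of each group; triangles mark replicates 2 and 5 at 68 mg/kg. Both triangles are below the lowest vehicle rat for every gene except Cd14, where they are the 2 highest of their group.

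Which of these genes rose and fell together among rats of one dose was measured by taking each rat's deviation from its group mean and correlating the deviations over the 35 rats. There were 28 pairs of the 8 genes, and 22 had a positive Pearson r. For 6 genes, Cd68, Clec4f, Cd5l, Csf1r, Laptm5 and Cd163, all 15 pairs were positive, with r from 0.718 to 0.976 and a median of 0.874. Spearman's rho for these pairs ran from 0.697 to 0.964, and the two-sided permutation p, from 100000 shuffles of rats within groups, was at most 3e-05, where 1e-05 is the smallest the shuffles can give. Without the 2 rats farthest from the median of the first gene of each pair, r ran from 0.646 to 0.969. The set of 6 was formed by leaving out Cd14 and Lyz2, which had low r. Its ranges and permutation p therefore describe genes picked by these same values.

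The closest pair was Cd68 with Clec4f, at r = 0.976 (rho 0.964, permutation p = 1e-05, the smallest possible), and 0.969 without the 2 rats farthest from the median of Cd68. Within each group of 6 rats that pair had r between 0.899 and 0.997. Cd68 with Cd5l had r = 0.969 (rho 0.960) and Clec4f with Cd5l r = 0.963 (rho 0.962), with group values from 0.951 to 0.976 and from 0.929 to 0.990. The growth factor receptor Csf1r was near them, at 0.916 with Cd5l, 0.90 with Cd68 and 0.864 with Clec4f. Laptm5 had r = 0.890 with Cd5l, 0.881 with Csf1r, 0.874 with Cd68 and 0.855 with Clec4f. Cd163 stood farther off, at 0.850 with Cd68, 0.835 with Clec4f, 0.792 with Cd5l, 0.732 with Csf1r and 0.718 with Laptm5. Of the 15 pairs, Laptm5 with Csf1r had the lowest r in a single group of 6, at -0.14, against 0.995 in another.

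The 15 pairs kept high r when the low rats at 68 mg/kg were left out. Without replicates 2 and 5 of that dose the 15 pairs had r from 0.707 to 0.968 with a median of 0.853 over 33 rats, and without the whole 68 mg/kg group from 0.705 to 0.968 with a median of 0.858 over 30 rats. Among all rats, replicate 5 at 0.69 mg/kg had the lowest deviation in each of the 6 genes. Its Cd68 value was 7.00, its Clec4f value 9.08 and its Cd5l value 8.20. Vehicle replicate 3 and replicate 5 at 6.88 mg/kg were also among the 6 lowest deviations for each of the 6 genes. Deviations are taken from each rat's own group mean, and in level vehicle replicate 3 read 7.43 for Cd68. The source of the low values was not tested.

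Over all 35 rats Cd14 had small r with every other gene. The r of Cd14 with the other 7 ran from -0.17 with Lyz2 to 0.04 with Cd163, with a median of -0.10, and the permutation p of these pairs ran from 0.340 to 0.872. With Cd68 it had r = -0.03 (rho -0.03, permutation p = 0.859), and -0.04 without the 2 rats farthest from the median of Cd14. Its r with Cd68 over the 33 rats without replicates 2 and 5 at 68 mg/kg was 0.14, so the sign of that small value rested on them. In single groups of 6 the r of Cd14 with the others ranged from -0.64 to 0.69, with medians of 0.27 at 6.88 mg/kg and 0.28 at 680 mg/kg. The median r of the 7 genes other than Cd14 with each other was 0.850.

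Lyz2 lay between. It had r from 0.06 with Cd163 to 0.38 with Csf1r, and the permutation p for Csf1r was 0.0446 (rho 0.34, permutation p = 0.0737), the lowest for Lyz2. Without the 2 rats farthest from the Lyz2 median, its r with Csf1r was 0.23 and with Cd68 0.17, down from 0.33. Its r with Cd68 was 0.12 without replicates 2 and 5 at 68 mg/kg, 0.20 without replicate 2 alone, where the deviation of Lyz2 from its group mean was -1.26, and 0.34 without replicate 5 alone. In single groups of 6, r of Lyz2 with the 6 genes ranged from -0.72 to 0.86.

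**Figure D2:**
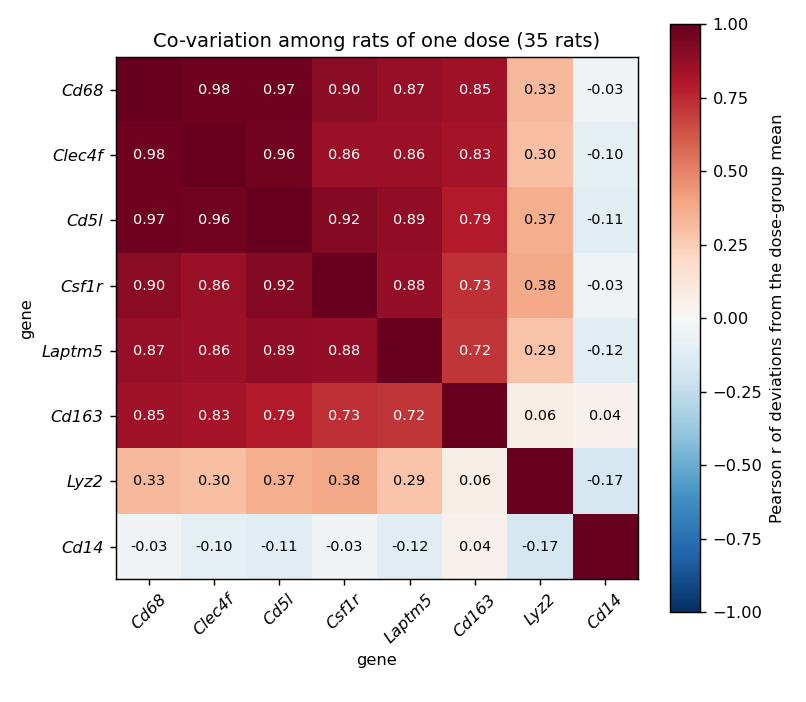
The matrix gives Pearson r of the deviations from the dose-group mean over 35 rats for each pair of the 8 genes, on a colour scale from -1 to 1. Cd68, Clec4f, Cd5l, Csf1r, Laptm5 and Cd163 form a block with r of 0.718 or more, and the rows of Lyz2 and Cd14 are pale.

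To place these values against the rest of the genome, every probe set was fitted on the value of 1 of the genes with 1 coefficient per group (limma, moderated test of the slope, Benjamini-Hochberg adjustment over all probe sets, called under an adjusted p of 0.05). With Cd68 as the predictor, 529 of 31041 probe sets had a called positive slope, 1.70%. Clec4f, Cd5l, Csf1r, Laptm5 and Cd163 were among them, 5 of the 7 other genes. Clec4f had the highest r of 14216 genes with Cd68 and a slope of 1.04 log2 per log2 of Cd68 (95% confidence interval 0.940 to 1.14, limma adjusted p = 6.81e-17). Cd5l had a slope of 1.22 (1.10 to 1.34, adjusted p = 3.01e-16), Csf1r 0.73 (0.59 to 0.87), Cd163 0.71 (0.55 to 0.88) and Laptm5 0.33 (0.25 to 0.42). Cd14 had a slope of -0.02 (-0.29 to 0.24, adjusted p = 0.977) and ranked 7217th by r. A slope scales with the spread of its own gene, and the 5 were grouped by r in these same values. Whether intervals overlap is therefore no test of a difference between genes. The Lyz2 slope was 0.39 (-0.01 to 0.80, adjusted p = 0.570), an interval that also holds the slopes of Csf1r, Cd163 and Laptm5.

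The same 6 genes called each other from every side. The r of a pair is the same in both directions, so this largely restates the pairs above. With Clec4f as the predictor 1.63% of probe sets had a called positive slope, with Cd5l 1.73%, with Csf1r 1.80%, with Laptm5 1.64% and with Cd163 1.42%, and each time 5 of the 7 other genes were among them while Cd14 and Lyz2 were not. With the difference between the 3′ and 5′ control probe sets of Actb, a measure of RNA quality, as a covariate the number of probe sets called, in either direction, fell from 469 to 129 for Cd163, 542 to 315 for Laptm5, 555 to 348 for Cd68, 610 to 357 for Csf1r, 533 to 354 for Clec4f and 571 to 369 for Cd5l. With Cd14 or Lyz2 as the predictor limma called 0 of 31041 probe sets, a background of 0%. The ranking was not mutual, since Cd68 was the 6th closest gene to Cd163 but Cd163 was the 61st closest to Cd68.

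**Figure D3:**
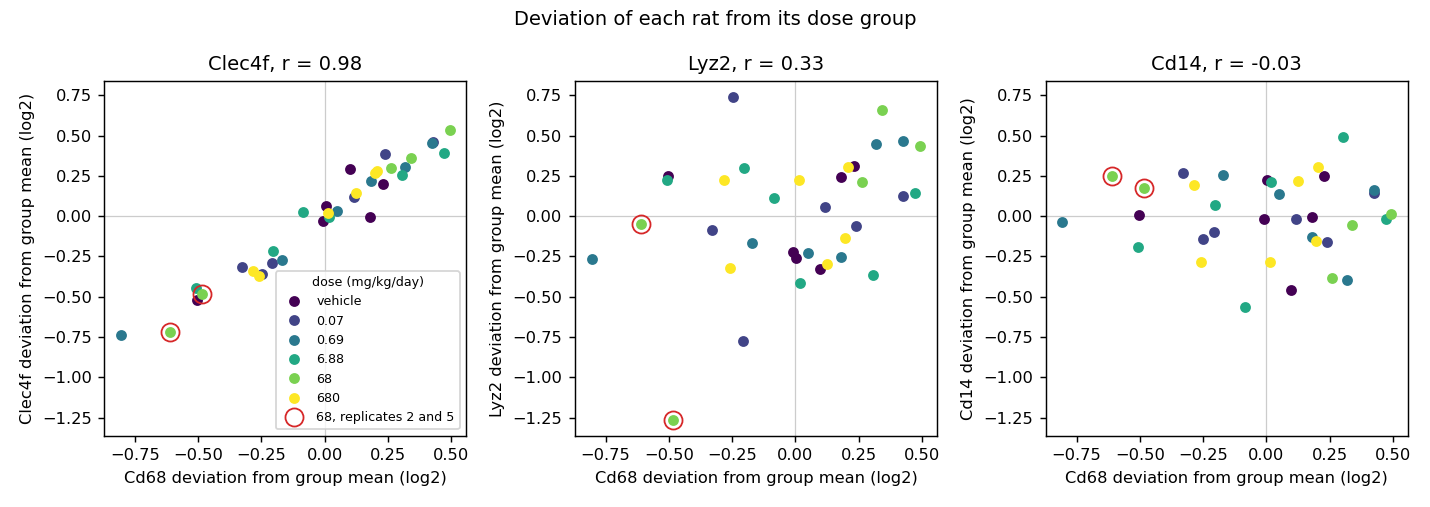
Each point is 1 of 35 rats, placed by its Cd68 deviation from the group mean (x, log2) and its deviation in Clec4f, Lyz2 or Cd14 (y, log2), coloured by dose, with replicates 2 and 5 at 68 mg/kg ringed. Clec4f falls on a line with Cd68 (r = 0.98), Lyz2 scatters (r = 0.33) and Cd14 scatters too (r = -0.03).

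The genes nearest to each of the 6, outside the list itself, overlapped. For Cd68 they were Fcer1g, the signalling chain of Fc receptors (r = 0.972), Ctss, a lysosomal cysteine protease (0.971), and C1qa, a chain of complement C1q made by macrophages (0.968). For Clec4f they were the chemokine Ccl6 (0.980), C1qa (0.973) and Ms4a6bl1 (0.967), and for Cd5l Ctss (0.974), Fcer1g (0.971) and Cybb, the phagocyte oxidase subunit (0.967). Csf1r was nearest to Adgre1, an adhesion receptor of macrophages (0.931), Fcer1g (0.931) and Fgl2 (0.919), and Laptm5 to Fcer1g (0.906), Cybb (0.896) and Ctss (0.895). Cd163 was nearest to Casp1, the inflammasome protease (0.871), Fermt3, an integrin activator of blood cells (0.865), and C1qb (0.856). limma called all of these, with adjusted p of 3.08e-06 or less.

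None of the nearest genes to Cd14 was called. They were Ptf1a (r = 0.678, limma adjusted p = 0.261, level below the array medians), Rex1bd (0.675, adjusted p = 0.507), Serpina4, the kallikrein inhibitor kallistatin (0.645), Cilk1 (0.636) and Rasal3 (0.633, level below the array medians). For Lyz2 they were Prkcd, a protein kinase C (0.664), Tnp2 (0.610, level below the array medians) and Obp3, a urinary lipocalin (0.603), also not called.

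Lists of other liver cell types and of macrophage pathways were read from the same fits on Cd68. Of 21 other measured Kupffer cell and macrophage genes, 20 had a called positive slope and the median r was 0.884, beside 372 of 14216 genes overall and a median r of -0.03. Adgre1 (r = 0.882), C1qa and Ctss were among them, and the exception was Itgam (0.13), an integrin chain of monocytes and neutrophils, at a level below the array medians and singled out after its value was seen. Of 9 macrophage growth factor and transcription factor genes 5 were called, among them Irf8 (0.801, adjusted p = 6.47e-06), a factor of myeloid development, and Zeb2 (0.589), while the Csf1r ligands Csf1 (0.07) and Il34 (-0.27) did not pass. Of 16 interferon response genes 13 were called with a median r of 0.831, including the antiviral genes Mx2 (0.832) and Oas1a (0.872), the GTPase Gbp2 (0.867) and Mx1 (0.871), whose mean level was below the array medians.

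The lipopolysaccharide recognition genes split. With Cd68, 4 of 14 were called, among them Ly96, the partner of the receptor Tlr4 (r = 0.772, adjusted p = 6.76e-05), the cytokine Il1b (0.795, adjusted p = 1.19e-05) and Tlr4 itself (0.609, level below the array medians), while Lbp, the serum binding protein that hands lipopolysaccharide to Cd14, had r = -0.16. With Cd14 none of the 14 was called, its median r with them was -0.02, and its r with Ly96 was 0.09 and with Tlr4 -0.16. No gene of the complex that Cd14 serves thus passed the test with Cd14, at 35 rats. Of all 31041 probe sets 0 had a called positive slope with Cd14 either, so this is nothing particular to these genes.

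Among markers of other cells, 5 of 16 lymphocyte and NK cell genes were called with Cd68, including the chemokine Ccl5 (r = 0.841) and the cytotoxic protein Prf1 (0.774), while the T cell genes Cd3d (0.08) and Cd3e (0.07), both at levels below the array medians, were not. Of 16 endothelial markers 5 were called, among them the receptor Tek (0.714) and Kdr (0.617), and, named after their values were seen, the sinusoidal markers Lyve1 (0.696) and Fcgr2b (0.554). The sinusoidal scavenger receptors Stab2 (0.20) and Stab1 (0.32) did not pass. Of 5 dendritic cell markers 1 was called, Clec9a (0.639), and Flt3 (0.10) and Itgax (0.28) were not, all 3 below the array medians in level. None of 5 neutrophil markers (S100a8 0.03, S100a9 -0.06, Cxcr2 0.31, Csf3r 0.09), 12 stellate cell markers (Lrat 0.12, Reln 0.13, Col1a2 0.19, Rgs5 -0.02) or 8 blood cell markers (Hbb -0.24, Alas2 -0.31, Pf4 -0.49, Ppbp -0.25) was called with Cd68, nor were any of 11 hepatocyte genes (Alb 0.01, Apoa1 -0.25, Cyp2c11 0.03, Serpina1 0.13). Of these, S100a8, Cxcr2, Csf3r and Ppbp lay below the array medians in level. Over all genes 372 of 14216 had a called positive slope with Cd68. A count of 0 in lists this short is close to that share and sets no cell type apart.

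Most of the acute phase genes encode proteins that hepatocytes secrete in inflammation, and the list also held Il1r1, Stat3 and Socs3. They did not pass with Cd68, where 372 of 14216 genes had a called positive slope, or with Cd14. But no probe set at all was called with Cd14 or with Lyz2. None of 15 was called with Cd68 (Orm1 -0.26, A2m -0.29, Hp -0.08) or with Cd14, where haptoglobin, Hp, had the highest r of the list at 0.536 (adjusted p = 0.855) and Orm1 had 0.27 and A2m 0.15. Lyz2 had a median r of -0.02 with the neutrophil markers and 0.31 with the other macrophage genes, none called.

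**Figure D4:**
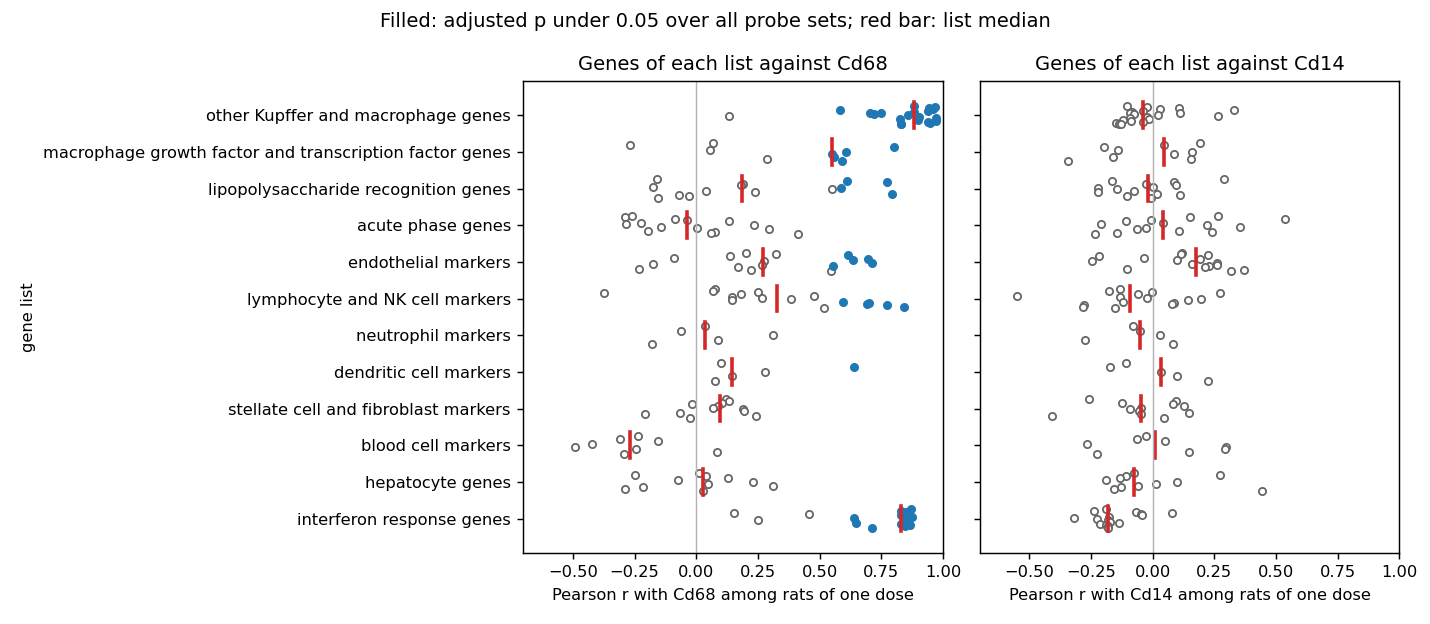
Each circle is 1 gene of a list, placed by its Pearson r with Cd68 (left) or Cd14 (right) among rats of one dose; filled circles had an adjusted p under 0.05 over all probe sets and red bars are list medians. Macrophage and interferon genes lie to the right for Cd68, at medians of 0.884 and 0.831, and for Cd14 the list medians run from -0.18 for the interferon genes to 0.18 for the endothelial markers.

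One measure of RNA quality moved with these genes. The difference between the 3′ and 5′ control probe sets of the actin gene Actb, larger when the labelled RNA is biased to the 3′ end, ran in group medians from 1.10 to 1.20 log2. Among rats of one dose it had r = -0.66 with Cd163 (rho -0.65, permutation p = 8e-05, r = -0.62 without the 2 rats farthest from the Cd163 median), and r from -0.50 with Clec4f to -0.54 with Cd68 for the other 5 of the group (permutation p from 0.00101 to 0.00468). These were 8 relations in all. For Cd14 it was -0.42 (rho -0.44, permutation p = 0.0253) and for Lyz2 0.04 (rho 0.08, permutation p = 0.788). In a limma fit over all probe sets, 93 of 31042 fell with this measure, 0.300%, and Cd163 was the only one of the 8 genes called (adjusted p = 0.0235), with adjusted p from 0.0907 for Cd68 to 0.962 for Lyz2 in the others. With the measure removed as well, the 15 pairs had r from 0.587 to 0.969 with a median of 0.826, Cd14 with Cd68 had -0.34 in place of -0.03, and Lyz2 with Cd68 had 0.42 in place of 0.33. Among the rats with low macrophage genes, replicate 5 at 0.69 mg/kg read 1.27 on this measure, the highest of its group. Replicate 5 at 6.88 mg/kg read 1.31 and vehicle replicate 3 read 1.19, each the second highest of its group. At 68 mg/kg replicates 2 and 5 read 1.14 and 1.10, within the 1.08 to 1.15 of their group. The part of RNA quality in these low values was not tested beyond the fits with this measure.

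The last comparison set each dose against vehicle. At every dose 7 of the 8 genes had a mean below vehicle and Cd14 had a mean above it. Of all genes, 49.4%, 53.3%, 53.0%, 48.3% and 48.9% lay lower from the lowest to the highest dose. But all 5 doses share the same vehicle rats and their differences are not independent. Nor are the genes, since 6 of those 7 had r of 0.718 or more with each other among rats of one dose. limma called 0 of 31042 probe sets at each dose, 0%, with 1130, 981, 1438, 1205 and 1538 at an unadjusted p under 0.05 from the lowest to the highest dose, and an unmoderated analysis of variance also called 0. None of the 40 differences of the 8 genes was called, with limma adjusted p from 0.994 to 1.00. Their fold values ran from 0.746 for Lyz2 at 0.07 mg/kg to 1.23 for Cd14 at 68 mg/kg, and the 95% intervals of single genes from 0.532 to 1.52. The moderated F test over the doses and the trend over dose rank called 0 probe sets too, with 1194 and 1596 at an unadjusted p under 0.05. The adjusted p of the 8 genes was 1.00 in the F test and from 0.973 to 0.995 in the trend.

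The log2 mean of Cd163 went from 6.59 ± 0.26 with vehicle (SD, n = 6) to 6.22 ± 0.22 in the 5 rats at 68 mg/kg, a value of 0.769-fold (95% interval 0.605 to 0.976), below the vehicle mean in 5 of 5 rats. Its exact two-sided permutation p was 0.0346, the only 1 of the 40 under 0.05, and its limma adjusted p over all probe sets was 0.999. The mean of Cd14 was 9.45 ± 0.25 with vehicle against 9.74 ± 0.25 in them, a value of 1.23-fold (0.994 to 1.52, exact p = 0.0866), above the vehicle mean in 4 of 5 rats. Cd5l was 0.759-fold (0.532 to 1.08), Lyz2 0.759-fold (0.540 to 1.07), Clec4f 0.799-fold (0.591 to 1.08), Cd68 0.805-fold (0.606 to 1.07), Csf1r 0.892-fold (0.707 to 1.12) and Laptm5 0.895-fold (0.798 to 1.00), each below the vehicle mean in 3 or 4 of 5 rats.

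Most of those values rested on replicates 2 and 5. Without both rats the median difference of the 8 genes from vehicle at 68 mg/kg was 0.06 log2 in place of -0.32, with 2 of 8 lower, beside a median of 0.00 over all genes either way. Cd68 became 1.04-fold, Clec4f 1.05-fold, Cd5l 1.05-fold, Csf1r 1.06-fold, Lyz2 1.03-fold and Laptm5 0.988-fold. Cd163 stayed below vehicle at 0.857-fold (log2 interval -0.62 to 0.18) and Cd14 above at 1.11-fold (log2 interval -0.20 to 0.51), neither called, with an adjusted p of 0.999. Both rats were known to be low from earlier results of these data, so a rise of these means without them was fixed in advance and is no test. The other Kupffer cell and macrophage genes and the interferon genes, which followed Cd68 among rats, had to move with them. The former went from 20 of 21 below vehicle (median -0.22) to 3 of 21 (median 0.04), and the latter from 14 of 16 (median -0.17) to 1 of 16 (median 0.23). For the hepatocyte genes the medians with and without both rats were -0.01 and -0.01.

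At the highest dose the same genes were near vehicle. Cd163 was 0.912-fold (0.726 to 1.15), Cd68 0.942-fold (0.719 to 1.23), Clec4f 0.925-fold (0.694 to 1.23), Cd5l 0.871-fold (0.621 to 1.22), Csf1r 0.957-fold (0.767 to 1.19), Laptm5 0.997-fold (0.893 to 1.11), Lyz2 0.860-fold (0.621 to 1.19) and Cd14 1.13-fold (0.923 to 1.38). The spread of Laptm5 among these rats, 0.05 log2, was small beside 0.19 at 68 mg/kg, and that of Cd68 was 0.22 beside 0.51. At 0.07 mg/kg Lyz2 had its lowest mean, 9.60 ± 0.49 against 10.02 ± 0.30 in vehicle rats (n = 6 each, exact permutation p = 0.0736), with 4 of 6 rats below the lowest vehicle rat and 1 above the highest. At 0.69 and 6.88 mg/kg the fold values of the 8 genes ran from 0.815 for Cd163 at 6.88 mg/kg to 1.08 for Cd14 at 6.88 mg/kg.

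**Figure D5:**
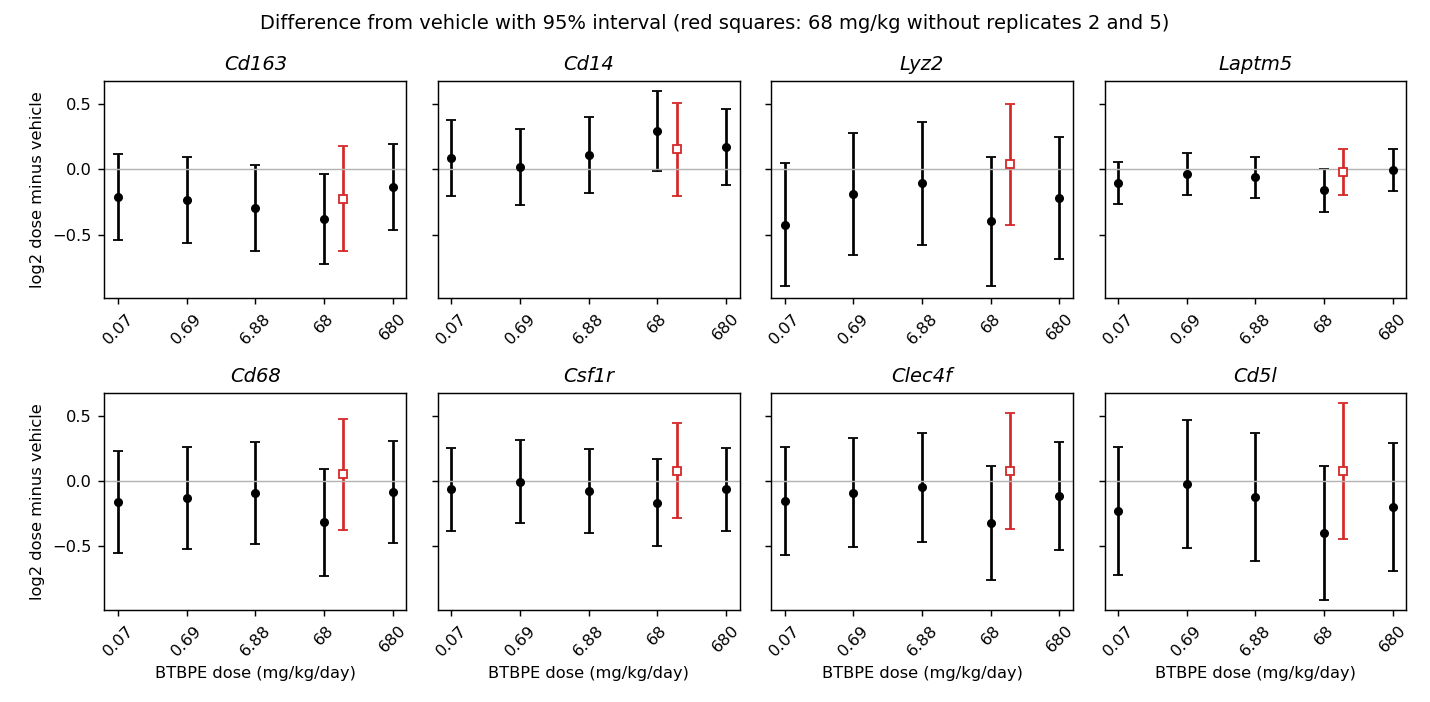
Points are log2 differences of each dose from vehicle with 95% intervals from the fit over all arrays, and red squares the 68 mg/kg difference without replicates 2 and 5. Of the 40 intervals only that of Cd163 at 68 mg/kg misses 0 (-0.72 to -0.03), and without the 2 rats it is -0.62 to 0.18.

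Second probe sets bore on Laptm5 and Cd5l. That of Laptm5 had r = 0.829 with the first among rats of one dose, and that of Cd5l had r = 0.911 although its mean of 3.63 lay below the array medians. None of their 10 differences from vehicle had the other sign. At 680 mg/kg the second probe set of Cd5l had a mean of 3.42 against 3.89 with vehicle, and 6 of 6 rats were below the vehicle mean. Its exact permutation p was 0.0346 and its limma adjusted p 0.994, at that low level.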

How the data were processed

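RNA of integrity number 7.0 or more, per the labels' protocols, was hybridised to Affymetrix 3′ arrays, 1 per rat. The authors' deposited values are log2 expression per probe set, made with RMA and the affy package per the submitters' processing notes; no version is given in the sources used here, and the base of the logarithm is RMA's convention. RMA's quantile step reduces any shift shared by most transcripts. The 57 control probe sets were left out and 31042 tested, with no filter and no further normalisation. Array number limits the precision.

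Genes were named from the platform annotation (20826 probe sets with 1 symbol, 436 with several, 9780 with none), and 20758 matched RefSeq's GRCr8 table. The authors' R/maanova was replaced by limma 3.58.1 (R 4.3.3) in the same one-way model over all 35 arrays. Slopes on 1 gene came from limma too, and permutations from numpy 2.4.6. The fits were tested on simulated data. The genes and lists were chosen with earlier results of these data known. Named are all measured genes, the 3 nearest to each (5 for Cd14), and of each other list the first 2 measured and up to 2 nearest. Since 2 of the 10 genes were not measured, medians are over 7 other genes and 28 pairs. Replicate numbers were not used as pairs in the main fits, and fits with them as a block are given below.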

Additional observations from a re-analysis of the deposited data

Results flagged for a closer look

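Of 48 combinations of a gene and a dose group, 3 had a rat set apart from the rest of its group by Dixon's criterion at the 95% level, which chance meets in about 1 in 20. Cd163 in replicate 5 at 0.69 mg/kg read 5.47, where the next lowest of its group read 6.44. In vehicle replicate 3, Cd68 read 7.43, with the next lowest at 7.93, and Cd5l read 8.50, with the next lowest at 9.02. The criterion reads the gap of a single rat and cannot set apart a pair that is low together, so it says nothing of replicates 2 and 5 at 68 mg/kg.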

How the results depend on the processing

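No alternative called a probe set at any dose, in the F test or in the trend. Of 850 recomputed differences of the 8 genes from vehicle none passed and 47 changed sign: 29 of 472 on leaving out 1 rat, 9 of 40 with the Actb 3′ minus 5′ value as a covariate, and 5 of 8 at 68 mg/kg without replicates 2 and 5. That covariate lowered the number of probe sets called with each gene from 469 to 129 for Cd163, 542 to 315 for Laptm5, 555 to 348 for Cd68, 610 to 357 for Csf1r, 533 to 354 for Clec4f and 571 to 369 for Cd5l, and raised it from 0 to 2 for Cd14; the cause was not tested. It moved the median r of Cd14 with the other genes from -0.10 to -0.34. That median was 0.27 among the rats of 6.88 mg/kg alone and 0.28 at 680 mg/kg alone, and the median r among the other 7 genes, 0.850 over all rats, was 0.426 at 0.07 mg/kg alone. Leaving out 1 rat, the first ranged from -0.15 to -0.03, the second from 0.814 to 0.860 and the count of positive pairs from 21 to 24. Between groups, deviations of rats with the same replicate number had a median r of -0.02 over 85 pairs, and with different numbers 0.00. With the replicate number as a block, 23 of 28 pairs were positive and the medians were -0.10 and 0.839. With that block 0 probe sets were called at each dose. The counts called with each gene fell from 469 to 411 for Cd163, 542 to 420 for Laptm5 and 555 to 451 for Cd68. They fell from 610 to 507 for Csf1r, 533 to 448 for Clec4f and 571 to 474 for Cd5l, and stayed at 0 for Cd14 and Lyz2. A count does not show which genes stayed called, so whether the block changed a slope call named here was not tested.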
